A study of Oryctolagus cuniculus with 8 samples.

Results

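Induced pluripotent stem (iPS) cells of the Dutch rabbit were compared with the cell types they were made from, liver cells and stomach cells, by RNA level. The comparison used 6 of the 8 arrays of the study, chosen by the cell type in the labels: 4 arrays of iPS cells and 2 of somatic cells, 1 from liver and 1 from stomach. The iPS arrays came from 2 lines, of which that from liver was sampled at P7 and P23 and that from stomach at P6 and P22 (P, passage). The passages of a line were averaged, so that n = 2 lines stood against n = 2 somatic samples. The other arrays were of the embryonic stem (ES) lines rdES4 and rdES2-1. They entered the test through the estimate of the spread that all samples shared. They also had a part in the choice of tested probes and of the probe for each gene. Culture used stem cell medium for iPS and ES cells and somatic cell medium for liver and stomach cells, so medium and cell type cannot be told apart. Each tissue gave 1 iPS line and 1 somatic sample. The labels name no reprogramming factors, no passage for the somatic cells and no ages, and do not say whether any samples came from separate animals, so the p-values measure no more than the spread among these samples, which may in part be technical.

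An iPS cell is a body cell that introduced factors have returned to a state resembling that of the early embryo. In that state a small circuit of transcription factors around Oct4 (POU5F1) keeps the cell dividing and undifferentiated, while genes of the starting tissue are shut down. Cells grown out of solid organs on plastic often take on the features of connective tissue, with contractile fibres, secreted matrix and an active inflammatory programme.

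The levels below are log2 signals relative to the array's 75th percentile, so that 0 is that percentile, and a difference is the mean of the 2 lines minus the mean of the 2 somatic samples on that scale, with its standard error (SE). The 75th percentile of the signal was 296.9 to 341.5 on the iPS arrays, 163.8 for liver cells and 154.8 for stomach cells. By the mark that the scanner software gives each spot, 62.3% to 63.9% of probes were well above background on the iPS arrays, 57.8% on the liver cell array and 58.4% on the stomach cell array. The lowest signal well above background lay between -5.40 and -5.36 on the iPS arrays and was -4.53 and -4.65 on the somatic arrays, so a dim transcript could be followed further down in iPS cells. Over the tested probes the correlation of an iPS array with a somatic one lay at 0.798 to 0.818, and the somatic arrays correlated with each other at 0.974. Both liver line arrays and the liver cells lay on 1 slide, both stomach line arrays on another, and the stomach cells on the third slide. The liver contrast given below, liver line minus liver cells, therefore compared arrays of 1 slide.

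The labelled tissues were checked against their markers. Of the hepatocyte list, the untested genes for albumin (ALB) and apolipoprotein A1 (APOA1) were not well above background on any iPS or somatic array. Those for C-reactive protein (CRP) and hepatic lipase (LIPC) were not on either somatic array. The 7 tested genes of that list are given below. Among them RBP4 and TF lay above the lowest signal well above background in liver cells. Of the gastric proton pump, ATP4B was not above background on these 6 arrays, and ATP4A was near background in both somatic samples (-4.66 in liver cells, -4.40 in stomach cells). CTSE of the gastric list was clearly present in both somatic samples, as given below. Both somatic samples had high levels of the connective tissue genes DCN and MGP and of the smooth muscle actin gene ACTA2, described below. These are RNA levels of bulk cultures, in which fewer cells of a type and less RNA per cell cannot be told apart.

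Most of the measured transcripts differed. Of 28848 probes tested, 19216 (66.6%) passed an adjusted p of 0.05 (limma), 9880 (34.2%) higher and 9336 (32.4%) lower in iPS cells, with a median log2 difference of 0.02. The named genes leaned the other way, with 344 of 507 (67.9%) called, 112 (22.1%) higher and 232 (45.8%) lower, and a median difference of -0.62. The counts of gene lists below are to be read against these shares of named genes and of all tested probes. A gene above background on 1 side alone could be tested, and its direction was then largely set by the filter. With no scaling between arrays the lean of the named genes turned round, to 209 higher and 129 lower, and with the normexp background correction it was 94 higher and 324 lower. The lean was steepest among the large differences: 25 named genes were called at least 8-fold higher and 82 at least 8-fold lower, and 5 and 23 at least 64-fold. Over all tested probes these counts were 1308 and 1825 at 8-fold and 139 and 370 at 64-fold. The 4 iPS arrays did not overlap the 2 somatic arrays for 22438 probes (77.8%) and for 387 named genes (76.3%). Some transcripts were detected on 1 side only. A total of 2125 probes (7.37%) were well above background on all 4 iPS arrays and on no somatic array, among them 22 named genes, and 767 probes (2.66%) were so on both somatic arrays and on no iPS array, among them 23 named genes. The split depended on the processing. Of the calls, 51.4% were higher in iPS cells, against 55.6% with quantile normalization and 82.5% with no scaling, where the median difference was 1.03. The share was 33.2% with normexp, where the median difference was -0.40, and 38.8% with dim probes kept.

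**Figure D1:**
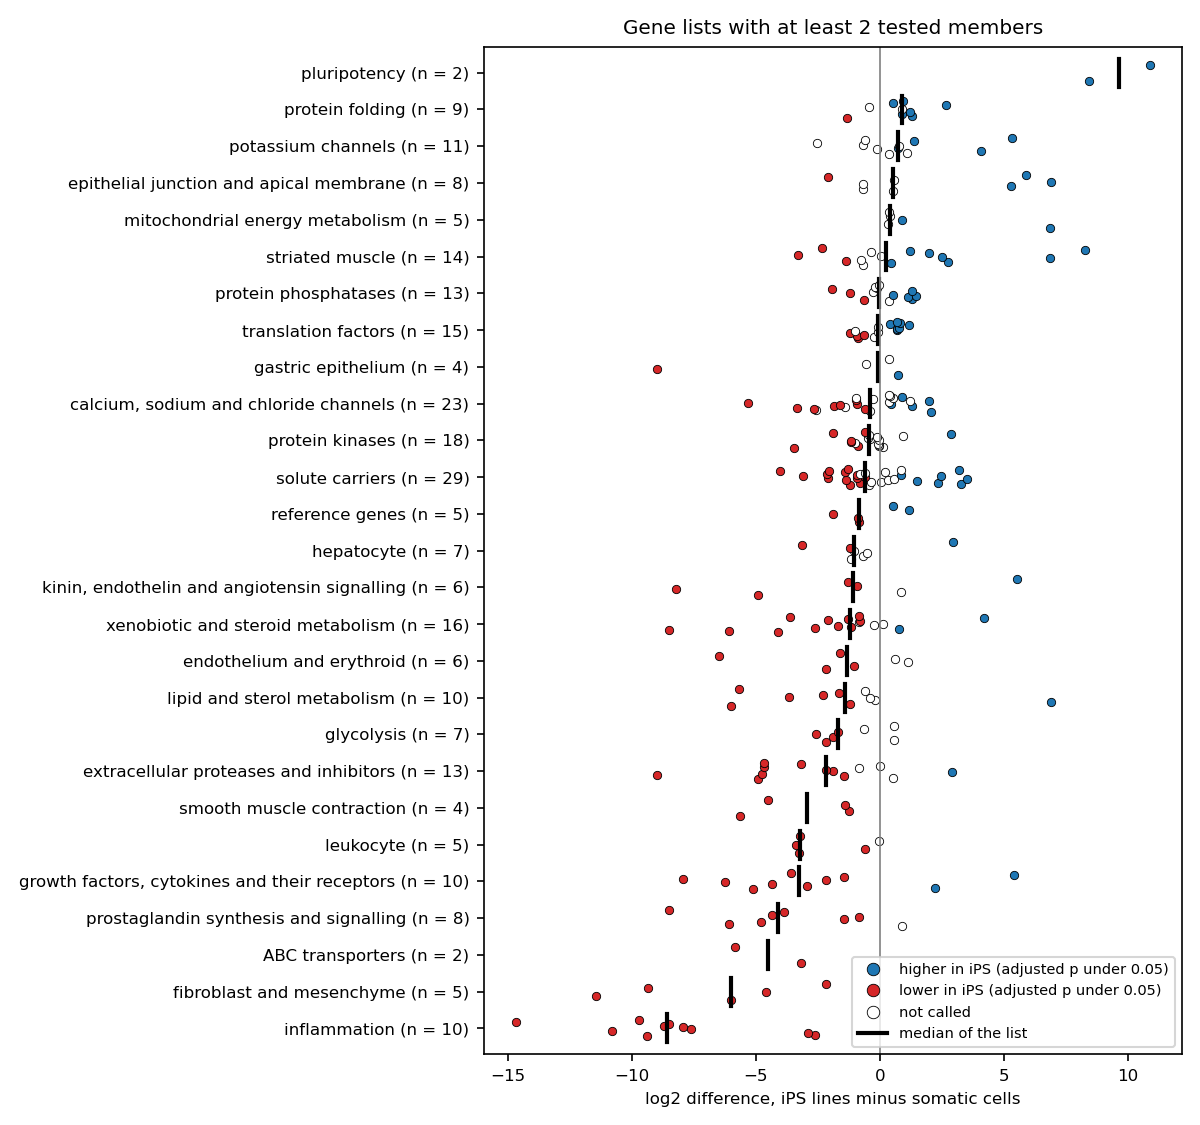
Log2 difference of iPS lines from somatic cells (horizontal axis) for each tested member of the gene lists with at least 2 tested members, with n the number tested, points filled blue where called higher and red where called lower, open where not called, and a bar at the list's median. All 10 points of the inflammation list lie to the left of 0, and 6 of 9 protein folding genes are filled blue.

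The transcription factor gene POU5F1, which encodes Oct4, the central factor of pluripotency, had the largest rise among named genes. Values are given throughout in the order liver line P7 and P23, stomach line P6 and P22, liver cells and stomach cells. POU5F1 stood at 7.62, 7.08, 7.57, 7.12, -3.63 and -3.46, a difference of 10.89 ± 0.19 (SE, adjusted p = 6.26e-05). All 4 iPS arrays were close together, both somatic arrays were low, and the difference was nearly the same against liver cells (10.98) as against stomach cells (10.81). Since the labels name no reprogramming factors, it is not known whether this probe also read an introduced copy of the gene. PODXL, a sialomucin of the cell surface that carries epitopes used to recognise human pluripotent cells, stood at 7.29, 7.32, 7.30, 7.32, 2.34 and -4.54, and was not above background in stomach cells. The iPS arrays were nearly identical while the somatic samples were far apart, so the difference of 8.41 carried an SE of 2.17 (adjusted p = 0.0203), and without the stomach cells it was 4.97 (adjusted p = 0.000458). These were the only members of the 31-gene pluripotency list with a named probe, and both were called.

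**Figure D2:**
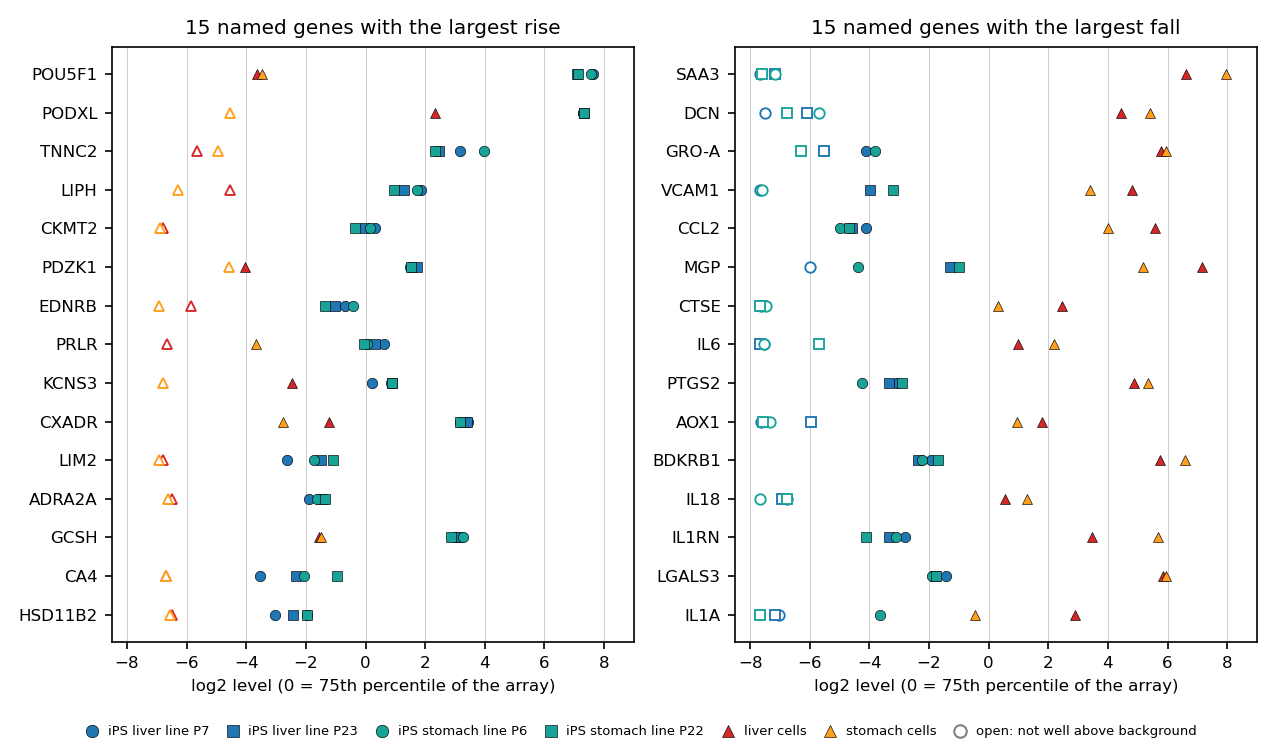
Log2 level on each of the 6 arrays (horizontal axis, 0 = 75th percentile of the array) for the 15 named genes with the largest rise (left) and the 15 with the largest fall (right), with open symbols for arrays where the gene was not well above background. POU5F1 lies between 7.08 and 7.62 on the iPS arrays and at -3.63 and -3.46 on the somatic arrays, and SAA3 lies at 6.61 and 7.95 on the somatic arrays with open symbols on all iPS arrays.

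Several of the other large rises were genes named for striated muscle or for membranes of epithelia. TNNC2, the calcium-binding troponin of fast skeletal muscle, stood at 3.16, 2.45, 3.97, 2.34, -5.64 and -4.95, at least 190-fold higher in iPS cells (adjusted p = 8.65e-05). CKMT2, a mitochondrial creatine kinase of striated muscle, stood at 0.32, 0.00, 0.14, -0.34, -6.79 and -6.88, at least 24.6-fold higher (adjusted p = 6.26e-05). For both, every iPS array was above background and neither somatic array was. The list they belong to did not move as a whole. Of 14 tested striated muscle genes, 7 were higher, 3 lower and 4 not called, with a median difference of 0.23. CASQ1, the calcium store protein of fast muscle, was at least 1.78-fold higher (adjusted p = 0.00553), and JPH1, which joins the calcium store to the surface membrane, was higher by 2.50 (adjusted p = 0.0311). Lower in iPS cells were CASQ2, the cardiac counterpart of CASQ1, by -1.38 (adjusted p = 0.00272), the fast troponin I gene TNNI2 by -2.35 (adjusted p = 0.013), and PLN, which restrains the calcium pump of the heart, by -3.31 (adjusted p = 0.00227, above background on 2 of 4 iPS arrays). With either ES line left out the adjusted p of JPH1 was 0.0564, and without the stomach cells its difference was 1.40 (adjusted p = 0.0223). Under normexp CASQ1 turned to -0.29 and was not called, and with no scaling CASQ2 was -0.37 (adjusted p = 0.234). With slide as a block CASQ1 (adjusted p = 0.0612), JPH1 (0.0648) and PLN (0.056) lost their calls. Here and below, the fit with slide as a block took each array alone, and its iPS side rested on the liver line.

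Genes of epithelial junctions and apical membranes included 3 of the largest rises, while the other members went both ways. The list had 3 genes higher, 1 lower and 4 not called of 8 tested. LIPH, a phospholipase that makes a signalling lipid at the cell surface, stood at 1.87, 1.30, 1.73, 0.97, -4.56 and -6.30, at least 66.6-fold higher in iPS cells (adjusted p = 0.00058). PDZK1, a scaffold of the brush border membrane, stood at 1.56, 1.72, 1.50, 1.51, -4.06 and -4.57, a difference of 5.89 ± 0.20 (SE, adjusted p = 9.18e-05), and was above background on 1 of 2 somatic arrays. CXADR, an adhesion molecule of tight junctions, stood at 3.43, 3.40, 3.18, 3.17, -1.23 and -2.76, a difference of 5.29 ± 0.51 (SE, adjusted p = 0.000783). In these 3 genes the iPS arrays lay within 1 log2 unit of each other and far above both somatic samples. The scaffold genes NHERF1 and NHERF2, relatives of PDZK1, did not follow it. NHERF2 was lower by -2.11 (adjusted p = 0.000578), and NHERF1 did not pass the test (difference 0.56, adjusted p = 0.0585). The membrane linker EZR (-0.67), the tight junction gene CLDN1 (-0.68) and the aminopeptidase ANPEP (0.51) did not pass either. ANPEP was higher in the liver line than in liver cells by 2.24 and lower in the stomach line than in stomach cells by -1.23. The summed level of the 8 genes, as a multiple of the array's 75th percentile signal, was 16.7 to 20.6 on the iPS arrays, 3.67 in liver cells and 2.77 in stomach cells.

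Potassium channels set the resting voltage of a cell. Of 11 tested potassium channel genes, 4 were higher, none lower and 7 not called. The higher share was 34.2% over all tested probes and 22.1% over named genes. KCNS3, a silent subunit that modifies delayed rectifier channels, stood at 0.23, 0.87, 0.85, 0.89, -2.46 and -6.79, a difference of 5.34 ± 1.37 (SE, adjusted p = 0.02), and was not above background in stomach cells. Without the stomach cells its difference was 3.17. KCND2, a subunit of transient outward channels, was at least 4.39-fold higher (adjusted p = 0.00168), and the cardiac channel partner gene KCNE1 was higher by 0.72 (adjusted p = 0.0279). The leak channel gene KCNK1 was called as well (adjusted p = 0.0257), but it was above background on 2 iPS arrays and no somatic one, and no fold is given, since its difference was 0.04 with the dim arrays set to the lowest level well above background. Without the stomach line at P6 or the stomach cells the list had 2 genes higher. KCNK1 lost its call without the liver line at P23 (adjusted p = 0.675), the stomach line at P6 (0.0848) or P22 (0.0517), liver cells (0.0622) or stomach cells (0.0806), with slide as a block (0.557) and with line as a random block (0.33), and under normexp it was called lower at -0.58. KCNE1 lost its call without the stomach line at P6 (0.67, adjusted p = 0.0535), liver cells (0.67, adjusted p = 0.0815) or stomach cells (0.78, adjusted p = 0.0577), was 0.09 by the median over its probes (adjusted p = 0.0851) and was called lower at -0.29 under normexp. With normexp 1 potassium channel gene was called higher and 7 lower.

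Among receptors and other single genes, EDNRB, the endothelin receptor needed by neural crest cells, stood at -0.69, -1.01, -0.42, -1.35, -5.84 and -6.94, at least 13.2-fold higher in iPS cells (adjusted p = 0.000454). ADRA2A, an adrenaline receptor, was at least 8.02-fold higher (adjusted p = 8.56e-05), with -1.89, -1.47, -1.64 and -1.34 on the iPS arrays. PRLR, the prolactin receptor, stood at 0.61, 0.32, 0.07, -0.06, -6.66 and -3.66, a difference of 5.40 ± 0.96 (SE, adjusted p = 0.00588), with the liver cells not above background. LIM2, a membrane protein of the eye lens, was at least 7.20-fold higher (adjusted p = 0.000267). The carbonic anhydrase gene CA4 was at least 5.16-fold higher (adjusted p = 0.00111). HSD11B2, which inactivates glucocorticoids, was at least 4.73-fold higher (adjusted p = 0.000427). GCSH, a subunit of the mitochondrial complex that breaks down glycine, stood at 3.08, 3.12, 3.28, 2.86, -1.57 and -1.50, a difference of 4.62 ± 0.12 (SE, adjusted p = 6.81e-05). It was the one gene of these that was clearly above background on all 6 arrays, and its somatic samples were nearly level. Under normexp, which compresses dim signals, CA4 (0.37), HSD11B2 (0.11) and the channel gene KCND2 (0.30) fell short of the threshold.

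On the other side, the largest falls were in inflammation genes, and all 10 tested members of that list were lower in iPS cells, against 32.4% of all tested probes and 45.8% of the named genes. Their median difference was -8.60, or -8.21 with the genes not seen in iPS cells taken at their bound. Genes above background on the somatic arrays alone could be tested but could hardly come out higher, so the filter in part set this count. With probes above background on all 8 arrays fewer members were tested, as given below. SAA3, a serum amyloid of the acute phase, stood at -7.67, -7.16, -7.18, -7.60, 6.61 and 7.95, at least 6452-fold lower (adjusted p = 9.06e-05). It was not above background on any iPS array and was high in both somatic samples. GRO-A, a chemokine that draws neutrophils, stood at -4.11, -5.54, -3.80, -6.29, 5.78 and 5.95, a difference of -10.80 ± 0.22 (SE, adjusted p = 6.26e-05), or -10.54 with both dim iPS arrays set to the lowest level well above background. CCL2, a chemokine that draws monocytes, stood at -4.12, -4.58, -5.00, -4.68, 5.59 and 4.01, a difference of -9.40 ± 0.54 (SE, adjusted p = 0.000226). The gaps of these chemokines were many times the gap between the somatic samples. VCAM1, the adhesion molecule that holds leukocytes, stood at -7.66, -3.98, -7.62, -3.20, 4.82 and 3.39, a difference of -9.72 ± 0.48 (SE, adjusted p = 0.000173). It was above background only on the late passage iPS arrays. With the dim arrays set to the lowest level well above background, VCAM1 differed by -9.49 in liver and -7.67 in stomach.

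Cytokine genes of the same list were also lower. IL6, a main signal of inflammation, was at least 125-fold lower (adjusted p = 0.000272), with 1.00 in liver cells and 2.19 in stomach cells. IL1RN, which blocks the receptor of interleukin-1, stood at -2.79, -3.35, -3.11, -4.10, 3.47 and 5.69, a difference of -7.92 ± 0.73 (SE, adjusted p = 0.000706). IL1A, which that blocker opposes, was above background on 1 of 4 iPS arrays and stood at 2.91 in liver cells and -0.45 in stomach cells, a difference of -7.61 ± 1.80 (SE, adjusted p = 0.0152). Both the cytokine and its blocker were thus lower in iPS cells. Without the liver cells the IL1A difference was -5.93 (adjusted p = 0.054).

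Prostaglandins are lipid mediators made from arachidonic acid by the cyclooxygenases, and 7 of 8 tested genes of this pathway were lower in iPS cells. The lower share was 32.4% over all tested probes and 45.8% over named genes. At the top of the pathway, PLA2G4A, which releases arachidonic acid from membranes, was lower by -4.79 (adjusted p = 0.007, above background on 1 of 4 iPS arrays). Without the stomach line at P6 its difference was -3.88 (adjusted p = 0.0529). PTGS2, the inducible cyclooxygenase, stood at -3.08, -3.36, -4.25, -2.89, 4.89 and 5.34, a difference of -8.51 ± 0.23 (SE, adjusted p = 7.08e-05). PTGS1, the constitutive form, stood at -0.08, -1.48, -0.84, -1.42, 3.25 and 2.59, a smaller difference of -3.87 ± 0.31 (SE, adjusted p = 0.000479). Downstream, the reductase gene AKR1C5 was lower in iPS cells by at least 31.6-fold (adjusted p = 0.000224), the synthase gene PTGDS was lower by -1.47 (adjusted p = 0.0134), and the reductase gene AKR1B1 did not pass the test (difference 0.88, adjusted p = 0.0801). Of the prostaglandin E2 receptors, PTGER4 was lower by -4.36 (adjusted p = 0.00399). PTGER2, at 8.68 to 9.71 on the 6 arrays, was lower by -0.83 (adjusted p = 0.00552), and was 0.02 with quantile normalization, 0.18 with no scaling and -0.25 by the median over its probes (adjusted p = 0.317), none called. With no scaling PTGDS was -0.46 (adjusted p = 0.263).

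Kinins, endothelin and angiotensin act on vessel tone, and the 6 tested genes split between 4 lower, 1 higher and 1 not called. BDKRB1, the kinin receptor that appears in inflamed tissue, stood at -1.95, -2.36, -2.22, -1.71, 5.75 and 6.57, a difference of -8.22 ± 0.30 (SE, adjusted p = 9.43e-05). ACE, which makes angiotensin II and destroys kinins, was lower in iPS cells by at least 8.09-fold (adjusted p = 0.0029). The endothelin genes moved in opposite directions. The ligand gene EDN1 was lower by -0.92 (adjusted p = 0.00401) and the receptor gene EDNRA by -1.29 (adjusted p = 0.00246), while EDNRB was higher, as given above. AGTR2, an angiotensin receptor, was under background on both somatic arrays and did not pass the test (difference 0.85, adjusted p = 0.245). With no scaling between arrays EDN1 was 0.08 and EDNRA -0.28, neither called.

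Connective tissue genes were lower throughout. All 5 tested members of the fibroblast and mesenchyme list were called lower, with a median difference of -5.99. The filter in part set this count too, as DCN was above background on the somatic arrays and on no iPS array. DCN, decorin, a proteoglycan that coats collagen fibres, stood at -7.50, -6.10, -5.70, -6.78, 4.44 and 5.42, at least 1267-fold lower in iPS cells, none of which was above background (adjusted p = 9.43e-05). MGP, which keeps matrix from calcifying, stood at -6.01, -1.31, -4.37, -0.98, 7.15 and 5.18, a difference of -9.33 ± 0.78 (SE, adjusted p = 0.000534), with 3 of 4 iPS arrays above background. It was high in both somatic samples and, among iPS arrays, higher at late than at early passage in both lines. HAS2, which makes hyaluronan, was lower by -4.61 (adjusted p = 0.00179, above background on 1 of 4 iPS arrays), and the gelatinase gene MMP2 by -2.18 (adjusted p = 0.000711). CAV1, the coat protein of caveolae, stood at 0.36, -2.67, -0.31, -3.57, 4.76 and 4.13, a difference of -5.99 ± 0.34 (SE, adjusted p = 0.000221). The summed level of these 5 genes was 2.11 to 3.22 times the array's 75th percentile on the iPS arrays, 198.8 times in liver cells and 106.5 times in stomach cells.

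Smooth muscle genes were lower as well, in all 4 tested members of the list. ACTA2, smooth muscle actin, stood at -0.07, 0.28, 0.79, 0.76, 7.02 and 5.13, a difference of -5.64 ± 0.75 (SE, adjusted p = 0.00225). The tropomyosin gene TPM2 was lower by -4.50 (adjusted p = 0.000659, above background on 1 of 4 iPS arrays), or -3.66 with the dim arrays raised. TPM1, the other tropomyosin gene, was lower by -1.39 (adjusted p = 0.0149), and CALD1, which regulates actin and myosin, by -1.24 (adjusted p = 0.0363). The call of CALD1 was lost without either ES line (adjusted p = 0.0511), the liver line at P23 (-1.04, adjusted p = 0.0801), the stomach line at P22 (-1.10, adjusted p = 0.0536) or liver cells (-0.74, adjusted p = 0.0795). The summed level of the 5 named genes of the list, with the untested MYH11, was 30.7 to 49.3 on the iPS arrays. It was 253.4 in liver cells and 98.0 in stomach cells. With no scaling TPM1 (-0.38) and CALD1 (-0.23) were not called, nor was CALD1 with quantile normalization (-1.04, adjusted p = 0.0678) or with the early passage arrays alone (-0.89, adjusted p = 0.098).

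Matrix-degrading enzymes and their inhibitors were mostly lower, with 9 of 13 tested genes lower, 1 higher and 3 not called. Over all tested probes 32.4% were lower, and over named genes 45.8%. CTSE, an aspartic protease of the stomach lining and of immune cells, stood at -7.64, -7.61, -7.45, -7.67, 2.45 and 0.32, at least 109-fold lower in iPS cells (adjusted p = 0.000437). It was higher in the liver cells than in the stomach cells. CTSK, the collagen-cutting cathepsin, stood at -2.14, -1.62, -1.08, -1.49, 3.14 and 3.17, a difference of -4.74 ± 0.22 (SE, adjusted p = 0.00015). MMP9, a gelatinase, stood at -0.82, -1.74, -2.03, -2.68, 5.08 and 0.61, a difference of -4.67 ± 1.51 (SE, adjusted p = 0.041). Liver cells stood far above stomach cells for this gene, and without them its difference was -2.43 (adjusted p = 0.0403). Its call was lost without either ES line (adjusted p = 0.0719) or the liver line at P23 (adjusted p = 0.0538). MME, a membrane peptidase known as CD10, was the one member that was higher, at -0.93, -0.52, -0.88, -0.46, -2.30 and -4.90, a difference of 2.90 ± 0.84 (SE, adjusted p = 0.0291), or 1.60 without the stomach cells (adjusted p = 0.00493). Its adjusted p was 0.0583 without either ES line and 0.0537 with slide as a block. The adjusted p of MMP9 was 0.058 with no scaling, 0.0552 with dim probes kept and 0.0556 with the early passage arrays alone.

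Growth factor and receptor genes were lower in 8 of 10 cases, beside 32.4% of all tested probes and 45.8% of named genes. BMP2, a signal for bone formation and mesoderm, stood at -3.38, -2.67, -3.56, -1.82, 2.17 and 2.39, a difference of -5.14 ± 0.42 (SE, adjusted p = 0.00052). IL18, which stimulates interferon production, was lower in iPS cells by at least 78.1-fold (adjusted p = 0.000144), and interferon gamma (IFNG) itself was lower by -4.34 (adjusted p = 0.00014). IGF1, a growth factor secreted by liver and by mesenchyme, stood at 0.92 in liver cells and -3.20 in stomach cells and was not seen in iPS cells, at least 18.8-fold lower (adjusted p = 0.00998). The genes called higher were PRLR, given above, and FGFR2, a receptor of fibroblast growth factors, at least 1.55-fold (adjusted p = 0.0233, above background on 3 of 4 iPS arrays). FGFR2 stood at -5.50, -3.56, -3.97, -2.80, -5.50 and -6.84, so its liver line at P7 was level with liver cells. Its call was lost without the liver line at P23 (1.73, adjusted p = 0.12) or stomach cells (1.55, adjusted p = 0.07), with the early passage arrays alone (1.44, adjusted p = 0.117) and with slide as a block (1.46, adjusted p = 0.235), and under normexp it was -0.35.

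Genes of blood and vessel cells were checked as markers of other cells in the cultures. Of 5 tested leukocyte genes, 4 were lower in iPS cells and 1 was not called. TLR2, a receptor for bacterial lipoproteins, stood at -1.40, -1.27, -1.69, -1.32, 1.63 and 1.96, a difference of -3.21 ± 0.17 (SE, adjusted p = 0.00019). FCGRT, the Fc receptor that carries IgG across cells, was lower by -3.39 (adjusted p = 0.000129), CD14, which binds endotoxin, by -3.27 (adjusted p = 0.00197) and the co-stimulator CD80 by -0.60 (adjusted p = 0.0252). The phagocyte oxidase gene NCF1 did not pass (-0.02). The T cell genes CD3E and CD4 and the phagocyte genes CYBB and CD86 were not above background on any of the 6 arrays, and CD28 and TLR4 on 1 iPS array, TLR4 also on 1 somatic array. The 12 named genes of the list, tested or not, summed to 5.75 to 9.68 on the iPS arrays. The sum was 74.8 in liver cells and 73.5 in stomach cells. Such a sum is carried by its brightest members, so it is no measure of leukocyte content. The part of these genes in the inflammation result was not tested. The call of CD80 was lost without the stomach line at P22 (-0.46, adjusted p = 0.0628) or liver cells (-0.47, adjusted p = 0.0744), with quantile normalization (-0.38, adjusted p = 0.0806), with the early passage arrays alone (-0.42, adjusted p = 0.0824), with slide as a block (-0.67, adjusted p = 0.0611) and by the median over its probes (-0.20, adjusted p = 0.235), and with no scaling it was 0.41.

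Among 6 endothelial and erythroid genes, 4 were lower and 2 not called. TFPI, the inhibitor that stops tissue factor, stood at -4.05, -2.35, -3.13, -1.18, 4.40 and 3.20, a difference of -6.48 ± 0.60 (SE, adjusted p = 0.00071). F3, tissue factor itself, was lower by -2.18 (adjusted p = 0.000769), and the anticoagulant receptor THBD by -1.63 (adjusted p = 0.000518). By the median over its probes F3 was -1.59 and not called (adjusted p = 0.138). The globin gene HBA was lower by -1.03 (adjusted p = 0.00409), and was -0.02 with no scaling. NOS3, the nitric oxide synthase of endothelium (difference 0.61), and the globin gene HBB2 (1.12) did not pass. The 8 named genes of the list, with the untested ALOX15 and SELE, summed to 0.816 to 1.02 on the iPS arrays. The sum was 23.1 in liver cells and 10.6 in stomach cells.

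The hepatocyte list gave no common direction, with 1 of 7 tested genes higher, 2 lower and 4 not called. TF, transferrin, the iron carrier of plasma, stood at 0.29, 1.00, 0.40, 1.24, -1.62 and -2.83, a difference of 2.96 ± 0.43 (SE, adjusted p = 0.00305), higher in iPS cells than in liver cells. RBP4, the carrier of retinol, stood at 0.36, -0.64, -0.17, -0.89, 1.89 and 3.75, a difference of -3.15 ± 0.62 (SE, adjusted p = 0.00838), and was highest in stomach cells. LCAT, a plasma enzyme that esterifies cholesterol, was lower by -1.20 (adjusted p = 0.0135), and -0.20 with no scaling, not called. HP, HPX and APOE, which carry haemoglobin, haem and lipids, were higher in stomach cells than in liver cells and did not pass (differences -0.54, -1.03 and -1.15), nor did the clotting factor F10 (-0.70). Without liver cells 5 of the 7 genes were called lower. The 11 named genes of the list, tested or not, summed to 3.58 to 4.23 on the iPS arrays. The sum was 4.89 in liver cells and 20.2 in stomach cells. Of 4 tested gastric genes, CTSE was lower, as given above, the proton pump gene ATP4A was higher by 0.73 (adjusted p = 0.0201), and the pepsinogen genes PGC (0.37) and PGA5 (-0.56) did not pass. ATP4A was above background on 1 of 2 somatic arrays. Its adjusted p was 0.0646 without liver cells, and under normexp it was -0.45.

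Enzymes that handle foreign compounds and steroids were mostly lower, with 11 of 16 tested genes lower, 2 higher and 3 not called. Over all tested probes 32.4% were lower, and over named genes 45.8%. AOX1, aldehyde oxidase, stood at -7.64, -5.97, -7.34, -7.57, 1.78 and 0.94, at least 107-fold lower in iPS cells (adjusted p = 0.000168). AHR, the receptor that switches on many of these enzymes, was lower in iPS cells by at least 5.88-fold (adjusted p = 9.2e-05), and the lactonase gene PON3 was lower by -3.64 (adjusted p = 0.00086, above background on 3 of 4 iPS arrays). Besides HSD11B2, given above, the carbonyl reductase gene CBR1 was called higher, by 0.76 (adjusted p = 0.0293). CBR1 lost its call without the liver line at P23 (0.69, adjusted p = 0.0582) or liver cells (0.66, adjusted p = 0.0926), with the early passage arrays alone (0.67, adjusted p = 0.0569) and by the median over its probes (0.24, adjusted p = 0.428). Both tested ABC transporters, which pump compounds out or gate channels, were lower. The drug pump gene ABCB1 stood at -1.60, -0.58, -0.79, -0.21, 1.56 and 3.19, a difference of -3.17 ± 0.62 (SE, adjusted p = 0.00796). ABCC9, a regulatory subunit of potassium channels in smooth muscle, stood at -3.66, -3.23, -3.69, -3.24, 1.08 and 3.73, a difference of -5.86 ± 0.88 (SE, adjusted p = 0.00333).

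Of 10 tested lipid genes, 6 were lower, 3 not called and 1, LIPH, higher, beside 45.8% of named genes lower. VLDLR, a lipoprotein receptor, stood at -2.58, -3.53, -3.12, -3.48, 2.26 and 2.73, a difference of -5.67 ± 0.22 (SE, adjusted p = 0.000101). The nuclear receptor genes PPARD and PPARG, which respond to fatty acids, were lower by -3.65 (adjusted p = 0.000174) and -2.29 (adjusted p = 0.00113). For all 3 the somatic samples were close together and above every iPS array.

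Of 29 tested solute carrier genes, 7 were higher, 13 lower and 9 not called, beside 22.1% of named genes higher and 45.8% lower. The 4 with the largest rises were under background in both somatic samples. SLC28A2, a nucleoside carrier, was at least 2.30-fold higher (adjusted p = 0.00127), SLC1A1, a glutamate carrier, at least 4.73-fold (adjusted p = 0.0331), and SLC7A9 and SLC3A1, the partners of the cystine carrier of kidney and gut, at least 1.79-fold (adjusted p = 0.00177) and 1.92-fold (adjusted p = 0.00166). SLC7A5, the light chain of a carrier that brings in leucine, stood at 3.81, 3.48, 3.87, 3.67, 7.55 and 7.93, a difference of -4.03 ± 0.17 (SE, adjusted p = 0.000127). SLC3A2, its heavy chain, stood at 0.77, 0.56, 0.83, 0.57, 3.69 and 3.90, a difference of -3.11 ± 0.16 (SE, adjusted p = 0.000178). The anion exchanger gene SLC4A3 was lower by -2.12 (adjusted p = 0.00124), and SLC2A4, the insulin-responsive glucose carrier, by -2.11 (adjusted p = 0.00346). SLC1A1 lost its call without liver cells (2.23, adjusted p = 0.11), with the late passage arrays alone (adjusted p = 0.0557), with slide as a block (adjusted p = 0.0827) and by the median over its probes (1.42, adjusted p = 0.224), and SLC3A1 with slide as a block (adjusted p = 0.0728). Under normexp SLC28A2 (-0.09), SLC7A9 (-0.22), SLC3A1 (-0.25) and SLC1A1 (0.18) were not called.

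Calcium, sodium and chloride channel genes showed 5 higher, 8 lower and 10 not called of 23 tested. Among voltage-gated calcium channels, the pore subunits went both ways. CACNA1A, the pore of the P/Q channel, was higher by 2.04 (adjusted p = 0.0304). The other pore genes, named after their values were seen, were not higher: CACNA1E was lower by -0.60 (adjusted p = 0.0292), and CACNA1B (-0.39) and CACNA1C (-2.59) did not pass. CACNA1C was not above background in liver cells and stood at 1.80 in stomach cells, and without liver cells it was called lower at -5.58. The accessory subunits CACNB1 (-3.34, adjusted p = 0.00245), CACNA2D1 (-2.64, adjusted p = 0.00294) and CACNB3 (-1.84, adjusted p = 0.00092) were lower. The chloride channel gene CLCN2 was higher by 1.29 (adjusted p = 0.00153), the calcium release channel gene RYR1 by 1.96 (adjusted p = 0.00372, above background on 1 of 2 somatic arrays), and VDAC1, the main pore of the outer mitochondrial membrane, by 0.90 (adjusted p = 0.0173). CACNA1A had an adjusted p of 0.0606 without either ES line and a difference of 1.14 without liver cells (adjusted p = 0.0146), and VDAC1 an adjusted p of 0.0581 without stomach cells. CACNA1E lost its call without either ES line (adjusted p = 0.0558) or stomach cells (-0.50, adjusted p = 0.0893), with quantile normalization (-0.40, adjusted p = 0.0937), with tissue of origin (adjusted p = 0.0508) or slide (adjusted p = 0.0705) as a block, and with no scaling, where it was 0.41 and CACNA1B was called higher at 0.61. Under normexp RYR1 was -0.02.

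Genes of sugar breakdown were lower or not called. Of 7 tested glycolysis genes, 4 were lower, none higher and 3 not called, beside 45.8% of named genes lower. GPI, which interconverts glucose and fructose phosphates, stood at 4.36, 4.66, 4.54, 4.81, 7.09 and 7.29, a difference of -2.60 ± 0.15 (SE, adjusted p = 0.000235). ALDOA, which splits the sugar, was lower by -2.19 (adjusted p = 0.000544), GAPDH, which oxidises the products, by -1.88 (adjusted p = 0.000742), and LDHA, which makes lactate, by -1.68 (adjusted p = 0.000478). The glucose carrier gene SLC2A1 (0.57), the kinase gene PFKP (-0.66) and the muscle enolase gene ENO3 (0.57) did not pass. SLC2A1 was called higher without both ES lines (0.57, adjusted p = 0.0406), with normexp (0.69) and with no scaling (1.58). ENO3 was called higher with no scaling (1.58) and lower with normexp (-0.51). Of 5 tested mitochondrial genes, CKMT2 and VDAC1 were higher, as given above, and the pore genes VDAC2 (0.41) and VDAC3 (0.35) and the nucleotide carrier gene SLC25A4 (0.30) did not pass. The count of these 5 genes called higher was 4 with quantile normalization and 5 with normexp or with no scaling.

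Genes of protein synthesis and folding showed small differences in both directions. Of 15 tested translation factors, 7 were higher, 4 lower and 4 not called. The initiation genes EIF4E, which binds the cap of the message, EIF4G2, EIF2B5 and EIF2B2 were higher by 1.16 (adjusted p = 0.0015), 0.82 (adjusted p = 0.00684), 0.77 (adjusted p = 0.00469) and 0.68 (adjusted p = 0.0165). The 4 genes called lower were the elongation factor 1 subunits EEF1G (-1.20), EEF1B2 (-0.92), EEF1A1 (-0.89) and EEF1D (-0.67), with adjusted p from 0.00232 to 0.0127. Their call depended on scaling: with quantile normalization they were -0.36, -0.04, -0.11 and 0.13, and with no scaling -0.19, 0.09, 0.12 and 0.34, none called. Of 9 tested folding genes, 6 were higher and 1 lower. FKBP4, a partner of Hsp90 and steroid receptors, stood at 4.57, 4.49, 4.60, 4.61, 1.83 and 1.95, a difference of 2.68 ± 0.13 (SE, adjusted p = 0.000161). The chaperonin subunits CCT2, CCT7 and TCP1, which fold actin and tubulin, were higher by 1.28, 1.23 and 0.91 (adjusted p = 0.00114, 0.00136 and 0.00396). CALR, the calcium-binding chaperone of the endoplasmic reticulum, was lower by -1.34 (adjusted p = 0.00327), and by -0.34 with no scaling, not called.

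Phosphatase and kinase genes were mixed. Of 13 tested phosphatase genes, 5 were higher, 3 lower and 5 not called. Over all tested probes 34.2% were higher and 32.4% lower. The catalytic subunits PPP2CA and PPP1CB were higher by 1.45 (adjusted p = 0.00363) and 1.29 (adjusted p = 0.00292), with the regulators PPP2R5D at 1.28 (adjusted p = 0.00671) and PPP1R2 at 1.14 (adjusted p = 0.00254). Lower were PPP3CA, the catalytic subunit of calcineurin (-1.92, adjusted p = 0.000585), PPP2R5B (-1.21, adjusted p = 0.00113) and PPP1CA (-0.66, adjusted p = 0.0112). Of 18 tested kinase genes, 1 was higher, 6 lower and 11 not called, the lower share being near that of all tested probes. PRKCZ, an atypical protein kinase C that sets cell polarity, stood at 2.08, 2.55, 2.38, 2.89, -0.49 and -0.31, a difference of 2.88 ± 0.19 (SE, adjusted p = 0.000312). CAMK2D, a calcium-dependent kinase, stood at 2.56, 2.50, 1.82, 2.56, 5.96 and 5.69, a difference of -3.47 ± 0.26 (SE, adjusted p = 0.00043). Lower too were PRKG1, the kinase that relaxes smooth muscle (-1.89, adjusted p = 0.0124), PHKA1 (-1.17, adjusted p = 0.00944) and PAK2 (-1.17, adjusted p = 0.00229). With no scaling PPP1CA was 0.35, and PPP2R5B, PRKG1, PHKA1 and PAK2 were not called. PHKA1 was not called by the median over its probes either (-0.81, adjusted p = 0.146), nor PPP2R5D under normexp (0.25, adjusted p = 0.0507).

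The genes often used as references differed too, in both directions. HPRT1, of purine salvage, was higher by 1.17 (adjusted p = 0.00212) and PPIA, cyclophilin A, by 0.53 (adjusted p = 0.0238), while ACTB, beta actin, was lower by -0.86 (adjusted p = 0.00395), beside EEF1A1 and GAPDH, given above. ACTB was -0.04 with quantile normalization and 0.15 with no scaling, and PPIA lost its call without stomach cells (0.42, adjusted p = 0.0653).

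The comparison was then split by tissue of origin, as a description without a test, since each tissue had 1 somatic array. Of the 28848 tested probes, 25755 (89.3%) differed in the same direction in both tissues. The liver contrast and the stomach contrast correlated at r = 0.916 across probes, which share scaling and probe chemistry and are not independent. The SD of the difference between the liver and stomach lines, each the mean of its passages, was 0.364. Between liver and stomach cells, each a single array, it was 0.758. Averaging lowers noise, so these SDs cannot tell on which side the gap between tissues lay. The 8 called named genes with the widest gap between the tissues, by the signals as measured, are given with any dim array set to the lowest level well above background on it. A difference that rests on such an array is then a lower limit of its size on the scale of the processed signals only. PODXL differed by 4.97 in liver and 11.86 in stomach, where the stomach cells were not above background. KCNS3 differed by 3.01 in liver and by at least 5.52 in stomach, and PRLR by at least 4.99 in liver and by 3.67 in stomach, so the gap of PRLR, 3.46 as measured, came to 1.33. Further below 0 in the liver contrast was MMP9 (-6.36 against -2.97), which was above background on all 6 arrays. The other 4 rested on dim iPS arrays. IL1A stood at -8.29 against -4.06, the bone matrix and cytokine gene SPP1 at -7.34 against -4.28, IGF1 at -6.30 against -2.17, and the bile acid receptor NR1H4 at -5.64 against -2.48. For all 8 genes, on these raised values, the span between the somatic samples was wider than that between the iPS lines. The genes were chosen for a wide gap, so this is no test. For IGF1 and NR1H4 no iPS array was above background, and their span between lines, 0.0068, is that of the levels set. The spans of IL1A and SPP1 between lines rest on set levels in part. NR1H4, which governs bile acid genes in liver and gut, was at 0.26 in liver cells and -2.89 in stomach cells and was lower in iPS cells by at least 16.7-fold (adjusted p = 0.00413). SPP1 was lower by -6.47 (adjusted p = 0.00416, above background on 2 of 4 iPS arrays), or -5.81 with the dim arrays raised.

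**Figure D3:**
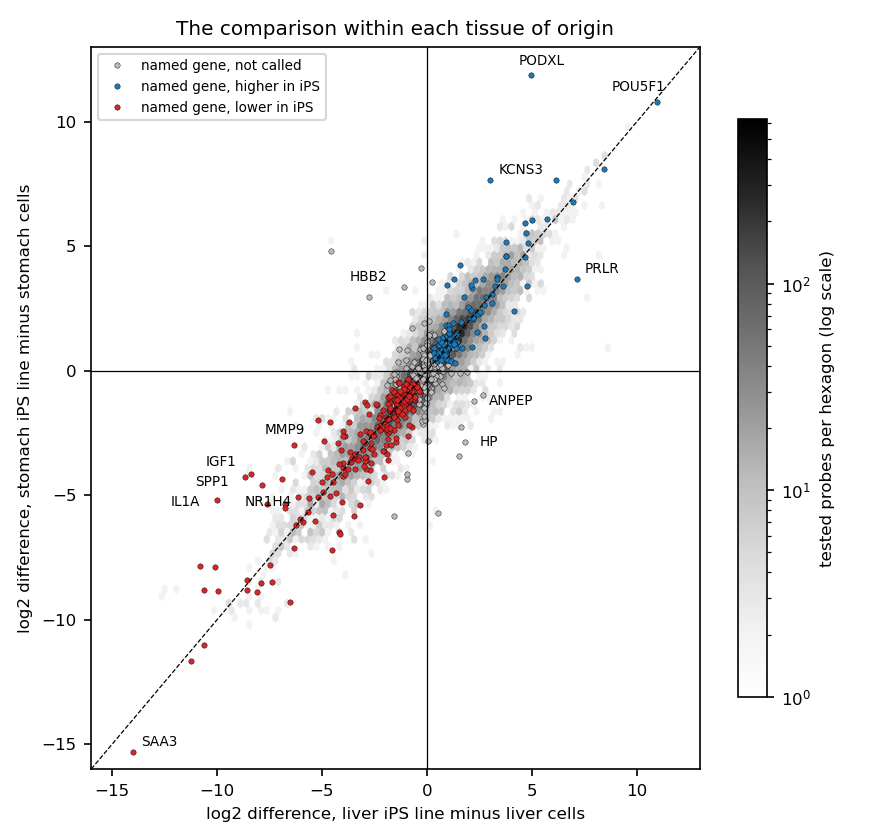
Log2 difference of the stomach iPS line from stomach cells (vertical axis) against that of the liver iPS line from liver cells (horizontal axis), with shading for the number of tested probes and points for the 507 named genes tested, blue where called higher and red where called lower in iPS cells. PODXL and KCNS3 lie above the dashed line of equal difference, and PRLR lies to its right.

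Some called genes differed between the passages of the iPS lines, each a single array, so passage and other differences between cultures cannot be told apart. The differences are again given as values only, late minus early, in the liver and then the stomach line, with dim arrays raised as above. The 8 genes were chosen as those with the largest shared difference by the signals as measured, so their shared direction is no test. Among them VCAM1 (1.39 and 2.16, both early arrays dim), MGP (4.05 and 3.39, the liver line at P7 dim) and TFPI (1.70 and 1.94) were closer to the somatic level at late passage. PAX6, a transcription factor of eye and neural progenitors, did the same (3.86 and 1.53, the liver line at P7 dim). CAV1 (-3.03 and -3.26), GRO-A (-1.28 and -1.59, both late arrays dim) and SGCA, a membrane protein of the muscle dystrophin complex (-2.07 and -1.74), were further from it. SLC3A1 was lower at late passage (-1.72 and -1.74), nearer to the somatic arrays, on which it was not above background. PAX6 was lower in iPS cells by -3.57 (adjusted p = 0.0138) and SGCA by -2.31 (adjusted p = 0.00693). With the late arrays alone PAX6 was -2.07 (adjusted p = 0.0556), and with the early arrays alone SGCA was -1.36 (adjusted p = 0.0506). Without the liver line at P23 SGCA was -1.80 (adjusted p = 0.0667). With slide as a block neither PAX6 (adjusted p = 0.0945) nor SGCA (0.096) was called, and with line as a random block PAX6 was not (0.0529). In the ES lines rdES4 and rdES2-1, CAV1 stood at -3.83 and -4.01, below its late passage level in both iPS lines, and VCAM1 at -7.62 and -7.79, near its early passage level. Across tested probes the SD of the late minus early difference, between single arrays, was 0.573 in the liver line and 0.541 in the stomach line. The iPS minus somatic difference, between means, had a median size of 0.970. That is another measure, so the values cannot be compared directly.

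**Figure D4:**
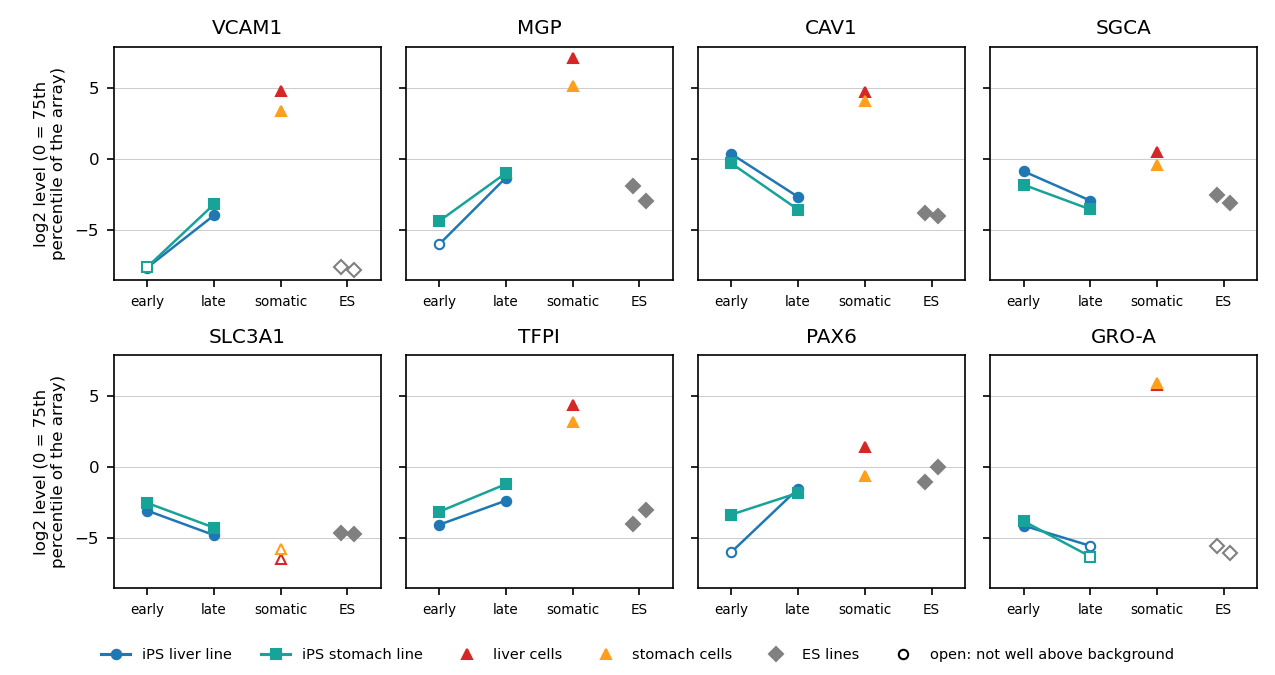
Log2 levels (vertical axis, 0 = 75th percentile of the array) of the 8 called genes with the largest shared passage difference, at early and late passage for the liver and stomach iPS lines, with the somatic and ES samples beside them and open symbols where a gene was not well above background. VCAM1 has open symbols at early passage in both lines and lies at -3.98 and -3.20 at late passage, and CAV1 falls from 0.36 to -2.67 and from -0.31 to -3.57.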

How the data were processed

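RNA was measured on 8 Agilent 1-colour arrays, 1 for each sample. Per the file headers, the deposited intensities, spot brightness on a linear scale, were written by the scanner software Agilent Feature Extraction, version 10.5.1.1, which subtracted background and removed spatial trends, with no scaling between arrays. The authors' deposited value table was on a log2 scale and matched these intensities after division by each array's 75th percentile and centring of each probe on its median over the arrays, with a correlation of at least 0.999999 on every array. It was used as an alternative only.

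Levels were computed as the log2 processed signal minus that array's 75th percentile over the 43603 probes that are not controls. A total of 19 probes with an outlier spot were left out, and no spot was saturated. Probes well above background on both arrays of at least 1 of 4 groups (ES, early iPS, late iPS, somatic) were tested, 28848 in all, 22111 of them above background on all 8 arrays. The test was that of limma 3.58.1, run in R 4.3.3 (lmFit and eBayes, two-sided, Benjamini-Hochberg adjustment over all tested probes, threshold 0.05), in 6 units of 3 groups: 2 iPS lines, 2 somatic samples and 2 ES lines. A check on simulated data was also run, with levels and spreads taken from the real arrays and their fit.

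The files pair probes with accessions. RefSeq's rabbit annotation (assembly mOryCun1.1) gave the symbols and nothing else: 1933 probes of 680 genes were named, 99 matched a placeholder name, and 41571 remained unnamed here, so most genes of the arrays are not described by name. The brightest probe over all arrays stood for a gene. Of the called named genes, 191 had several tested probes, 10 of them a probe of opposite sign, and 1 a called one. A gene that no array of a group measured above background is given as "at least" a fold, from the bright group's mean over the mean, per dim array, of the higher of its signal and the lowest signal well above background. Such a fold is a limit on the scale of the processed signals only. It is no limit under normexp, where the log2 difference was 0.61 for ADRA2A and -9.37 for SAA3. No level of one gene was set against that of another as a result.

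Named genes were the 15 largest rises and 15 largest falls among called genes whose arrays did not overlap, all tested members of lists of up to 8, otherwise the 4 largest calls each way, undetected members of 3 marker lists, and 8 genes each for the gap between tissues and between passages. The members and the 28 lists, of 1055 symbols with 315 named and 245 tested, were chosen with earlier results of these data known. Some genes that this rule names are not reported here. Alternatives were quantile normalization, normexp background correction (on median spot signals, in place of the planned mean signals), no scaling, the value table, other filters and units, tissue of origin or slide as a block, the median over a gene's probes, and leaving out each array. Setting dim arrays to the lowest level well above background, for the differences within a tissue and between passages, was chosen after seeing the data. The number of arrays limits the precision.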

Additional observations from a re-analysis of the deposited data

Results flagged for a closer look

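In 3 genes both iPS arrays of one tissue moved one way from their somatic sample and both of the other tissue the opposite way, and the difference between the tissues was not tested. ANPEP, an aminopeptidase of the brush border, was higher in the liver line than in liver cells by 2.24 on the log2 scale and lower in the stomach line than in stomach cells by -1.23. HBB2, a beta globin gene, differed by -1.10 in liver and by 3.35 in stomach, where the stomach cells were not above background. HP, haptoglobin, differed by 1.79 in liver and by -2.88 in stomach.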

How the results depend on the processing

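The 9880 probes called higher and 9336 called lower became 9373 to 9892 and 8784 to 9434 with 1 array left out, and the named genes 104 to 116 and 222 to 244. An arm then left with 1 sample was assumed to vary like the others. The value table changed no call of a named gene in the text, and the tissue of origin as a replicate block ended that of CACNA1E alone (adjusted p = 0.0508). That block gave 9650 probes higher, 2 epithelial genes lower and 1 potassium channel gene lower. Slide as a block left 16880 of the 19216 calls. That fit took each array alone, so the passages of a line counted as separate samples. As 1 slide held only the stomach line arrays, its term absorbed their level. The iPS side of that fit thus rested on the liver line. Signal over background limited dim genes: the filter on all 8 arrays kept 22111 probes and 14786 of the calls, and no scaling 13645 of the calls. The cause of the changes below was not tested.

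With quantile normalization 4 mitochondrial and 2 gastric genes were higher and 0 translation and 1 reference gene lower, EEF1D was 0.13, NCF1 0.17 and PTGER2 0.024. With normexp 15191 probes were lower. Counts of genes higher were 4 for striated muscle, 1 for prostaglandin, 1 for potassium channels, 2 for solute carriers, 1 for xenobiotic, 1 for glycolysis, 5 for mitochondrial, 1 for growth factor and 0 for gastric genes. Counts lower were 8 for striated muscle, 4 for epithelial, 7 for potassium channel, 13 for calcium, sodium and chloride channel, 2 for folding, 11 for kinase, 4 for hepatocyte and 4 for gastric genes. Differences that turned were AGTR2 -0.48, ANPEP -0.59, ATP4A -0.45, CASQ1 -0.29, ENO3 -0.51, FGFR2 -0.35, HBB2 -0.48, KCNE1 -0.29, KCNK1 -0.58, NOS3 -0.39, PGC -0.52, RYR1 -0.024, SLC28A2 -0.093, SLC3A1 -0.25 and SLC7A9 -0.22.

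With no scaling 16899 probes and 209 named genes were higher, and 3587 and 129 lower. Counts higher were 2 for protease, 1 for prostaglandin, 2 for kinin, 8 for potassium channel, 12 for other channel, 11 for solute carrier, 2 for glycolysis, 5 for mitochondrial, 10 for phosphatase, 10 for kinase, 2 for gastric, 1 for leukocyte, 1 for endothelial and 2 for lipid genes. Counts lower were 2 for smooth muscle, 2 for kinin, 4 for other channel, 5 for solute carrier, 7 for xenobiotic, 0 for translation, 0 for folding, 1 for phosphatase, 1 for kinase, 1 for hepatocyte and 1 for reference genes. Differences that turned were ACTB 0.15, CACNA1B 0.61, CACNA1E 0.41, CD80 0.41, CLDN1 0.33, EDN1 0.085, EEF1A1 0.12, EEF1B2 0.092, EEF1D 0.34, EZR 0.34, F10 0.31, HP 0.47, NCF1 0.99, PFKP 0.35, PGA5 0.45, PPP1CA 0.35 and PTGER2 0.18.

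Keeping dim probes gave 15084 probes lower. With probes above background on all 8 arrays, fewer genes were tested. The counts higher were 1 for pluripotency, 2 for striated muscle, 0 for protease, 0 for kinin, 1 for potassium channel, 1 for solute carrier, 1 for xenobiotic, 0 for growth factor, 0 for gastric and 0 for lipid genes. Counts lower were 2 for fibroblast, 1 for striated muscle, 5 for inflammation, 4 for prostaglandin, 6 for xenobiotic and 0 for gastric genes. Without both ES lines 0 protease and 1 glycolysis gene were higher. With early iPS arrays only, 1 xenobiotic and 1 growth factor gene were higher, HP was 0.52, NCF1 0.26 and PGC -0.12. With late arrays only, 2 epithelial, 1 potassium channel and 2 gastric genes were lower and 2 gastric genes higher. With line as a random block 1 prostaglandin gene was higher and 1 potassium channel gene lower. With slide as a block 3 striated muscle, 0 protease, 4 solute carrier and 1 growth factor gene were higher, 2 potassium channel genes lower, and HP was 0.44. The median over a gene's probes left 1 xenobiotic gene higher and ended 7 calls of genes in the text, CBR1, CD80, F3, KCNE1, PHKA1, PTGER2 and SLC1A1.

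With 1 array left out, counts higher spanned 0 to 2 for protease, 0 to 1 for glycolysis, 0 to 2 for gastric, 2 to 5 for potassium channel, 1 to 2 for xenobiotic, 1 to 2 for growth factor, 0 to 1 for prostaglandin, 0 to 1 for endothelial, 1 to 2 for kinase, 1 to 2 for hepatocyte and 1 to 2 for reference genes. Counts lower spanned 1 to 2 for epithelial, 0 to 1 for potassium channel, 1 to 2 for gastric, 2 to 5 for hepatocyte and 1 to 2 for folding genes. Among genes not called, CACNA1C spanned -5.58 to 0.40, NCF1 -0.43 to 0.38, HP -2.89 to 1.81, ANPEP -1.32 to 2.33, ENO3 -0.19 to 1.33, HBB2 -1.57 to 3.82 and HPX -2.13 to 0.065.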

Other observations

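The genes below belong to no list and were chosen after their values were seen. SHMT1, the cytosolic hydroxymethyltransferase, stood at 2.43, 1.84, 2.11, 1.74, -1.59 and -2.17 in the order used above (difference 3.90 ± 0.26 SE, limma adjusted p = 0.0003). CBS, which joins serine to homocysteine, was higher by 2.91 (adjusted p = 0.00118). SHMT2, the mitochondrial hydroxymethyltransferase, was lower, at 2.71, 2.34, 2.41, 2.52, 6.11 and 5.97 (difference -3.55 ± 0.14 SE, adjusted p = 0.000101). PSAT1, an enzyme of serine synthesis, was lower by -3.30 (adjusted p = 0.000365). SHMT1 and SHMT2 were above background on all 6 arrays.

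NASP, a histone chaperone, stood at 6.46, 6.44, 6.45, 6.43, 3.19 and 3.02, a difference of 3.34 (adjusted p = 0.00012). LGALS3, a galectin of macrophages and fibroblasts, stood at -1.42, -1.79, -1.92, -1.77, 5.86 and 5.95, a difference of -7.63 ± 0.31 (SE, adjusted p = 0.000112).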
